A study of Mus musculus with 2 samples.

Results

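The 10 CC chemokine genes Ccl2, Ccl3, Ccl4, Ccl5, Ccl7, Ccl8, Ccl12, Ccl17, Ccl22 and Ccl24 were followed in single cells of AT3 mammary tumors, out of 32285 genes in the deposited matrices. They were taken by name as a list, and each of the 10 was found once in both matrices. For each gene the cell types that held its transcripts, the spread of its transcripts over single cells and its level in the 2 genotypes were described.

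CC chemokines are small secreted proteins with a pair of adjacent cysteines near the amino terminus of the mature protein, and they act on G protein-coupled receptors of the Ccr family on leukocytes. Ccl2, Ccl7 and Ccl12 act on Ccr2 and draw monocytes from the blood, and Ccl8 of the mouse acts on Ccr8. Ccl3, Ccl4 and Ccl5 draw macrophages, T cells and NK cells, Ccl17 and Ccl22 act on Ccr4 of regulatory and other CD4 T cells, and Ccl24 (eotaxin-2) acts on Ccr3 of eosinophils.

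AT3 is a mammary tumor line of the mouse, and the tumors were taken on day 30 from female mice of 6 to 12 weeks. The mice called WT were Pgd fl/fl and those called 6PGDKO were Pgd fl/fl LysM Cre, with 1 library for each, so both groups carried the floxed Pgd allele, and Cre was driven from the Lyz2 locus, which is active in myeloid cells and not in macrophages alone. Cells of 10 mice were pooled per genotype, labelled with an oligo per genotype and loaded together as CD45+ cells, while another sentence of the labels speaks of live CD11b+ cells. With 1 library per genotype a difference of genotype and a difference of library cannot be told apart, no p-value was computed, and every interval below is a 95% interval for counting error only.

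The WT library held 3728 barcodes and 27245625 UMIs (unique molecular identifiers, each standing for 1 captured transcript), and the 6PGDKO library held 3014 barcodes and 28827045 UMIs, with 0 barcodes in common. After filtering, 3565 WT cells with a median of 5554 UMIs and 2798 6PGDKO cells with a median of 7926 UMIs were kept. Cells were clustered without the Ccl genes into 19 clusters, of which 17 were named from marker genes. The names mean cells that are like the type named (macrophage-like and so on). The libraries differed in makeup, with 565 and 35 B cells, 130 and 335 monocytes, 732 and 729 macrophages, and 1675 and 1054 T cells in WT and 6PGDKO. B cells and T cells, which lack CD11b as a rule, were frequent. Among the small groups of cells 2 matter here: cluster 17, left unnamed, with 14 WT and 45 6PGDKO cells led by Retnla, Fn1, Lyz1, Ccl6 and Mrc1, and mast cells with 0 WT and 16 6PGDKO cells. All 9 macrophage markers were found in at least 25% of the cells of cluster 17. It stayed unnamed because its 10 leading genes held 1 macrophage marker and 2 monocyte markers (Fn1 and F13a1).

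Pgd, the targeted gene, went with the labels in macrophages and monocytes. In macrophages the level was 105 counts per 1e6 UMIs of the type (CPM) in WT and 30.4 CPM in 6PGDKO, a log2 ratio of -1.78 (-1.97 to -1.60). In monocytes it was 75.0 and 30.3 CPM, a log2 ratio of -1.31 (-1.70 to -0.91). In neutrophils 9 and 5 UMIs of Pgd gave a log2 ratio of -1.09 with an interval from -3.02 to 0.64, which covers 0. The log2 ratio was -0.15 (-0.82 to 0.53) in dendritic cells (DCs) and 0.28 (0.01 to 0.55) in T cells.

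The coding sequence around the pair of cysteines that names the family is shown for 9 of the genes, since these genes are close relatives and their transcripts have to be told apart. The stretches are 30 bases of the coding sequence (GENCODE vM39), 5′ to 3′, and capitals mark the 2 adjacent cysteine codons.
Ccl2: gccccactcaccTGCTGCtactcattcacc
Ccl7: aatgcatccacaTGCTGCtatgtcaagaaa
Ccl12: accccagtcacgTGCTGTtataatgttgtt
Ccl8: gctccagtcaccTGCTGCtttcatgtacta
Ccl4: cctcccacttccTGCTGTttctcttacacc
Ccl5: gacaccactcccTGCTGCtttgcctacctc
Ccl22: gaagacagtatcTGCTGCcaggactacatc
Ccl17: gtaggccgagagTGCTGCctggattacttc
Ccl24: atcccctcatctTGCTGCacgtcctttatt

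Over the 45 pairs of members the identity of the coding sequences ran from 41.3% to 68.4% with a median of 51.4%. Ccl3 and Ccl4 were the most alike (68.4%), followed by Ccl8 and Ccl12 (64.6%) and by Ccl7 and Ccl8 (64.1%). The longest run of bases that any pair of transcripts had in common was 23 bases.

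The genes lie in 3 places of the mouse genome (RefSeq, GRCm38.p6). On chromosome 11, Ccl2 (82035577 to 82037452), Ccl7 (82045712 to 82047525), Ccl12 (82101845 to 82103399) and Ccl8 (82115185 to 82116799) follow each other, with 8.26, 54.3 and 11.8 kb between neighbours. At 1409 kb from Ccl8 come Ccl5 (83525778 to 83530518), Ccl3 (83647843 to 83649378) and Ccl4 (83648624 to 83664683). The gene models of Ccl3 and Ccl4 overlap there, and whether strand was used in counting is not given in the sources used here. Ccl22 (94745684 to 94751388) and Ccl17 (94809380 to 94812038) lie within 66.4 kb on chromosome 8, and Ccl24 (135569935 to 135573123) is on chromosome 5.

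Promoters of 5 of the 10 genes were in the reference table. Those of Ccl8 and Ccl12 are shown, since these neighbours were both highest in macrophages, and those of Ccl22 and Ccl17 are shown as the neighbours whose transcripts lay together. Each runs from 250 bases before to 50 bases after a transcript start on the plus strand (RefSeq, GRCm38.p6), and capitals mark the letters TATAAA, searched on both strands. For Ccl8, Ccl12 and Ccl22 this start is the first base of the gene span given above, and for Ccl17 it lies inside that span.
Ccl8, chr11:82114935-82115234: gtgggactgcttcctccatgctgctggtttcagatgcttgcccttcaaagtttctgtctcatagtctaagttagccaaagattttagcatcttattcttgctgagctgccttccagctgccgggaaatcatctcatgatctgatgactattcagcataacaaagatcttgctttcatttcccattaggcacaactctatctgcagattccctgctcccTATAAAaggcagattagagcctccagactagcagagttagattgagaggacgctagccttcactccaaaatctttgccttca
Ccl12, chr11:82101595-82101894: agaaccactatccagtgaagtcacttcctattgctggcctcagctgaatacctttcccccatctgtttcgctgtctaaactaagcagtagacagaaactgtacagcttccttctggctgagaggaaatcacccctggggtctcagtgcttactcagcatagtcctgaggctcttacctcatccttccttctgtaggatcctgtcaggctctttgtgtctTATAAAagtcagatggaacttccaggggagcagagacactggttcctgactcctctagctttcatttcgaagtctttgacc
Ccl22, chr8:94745434-94745733: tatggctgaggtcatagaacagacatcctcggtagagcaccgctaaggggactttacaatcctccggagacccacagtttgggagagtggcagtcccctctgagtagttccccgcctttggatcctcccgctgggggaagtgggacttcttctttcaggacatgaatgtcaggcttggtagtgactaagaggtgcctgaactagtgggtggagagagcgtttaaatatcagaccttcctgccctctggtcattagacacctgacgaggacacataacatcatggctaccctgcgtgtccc
Ccl17, chr8:94810203-94810502: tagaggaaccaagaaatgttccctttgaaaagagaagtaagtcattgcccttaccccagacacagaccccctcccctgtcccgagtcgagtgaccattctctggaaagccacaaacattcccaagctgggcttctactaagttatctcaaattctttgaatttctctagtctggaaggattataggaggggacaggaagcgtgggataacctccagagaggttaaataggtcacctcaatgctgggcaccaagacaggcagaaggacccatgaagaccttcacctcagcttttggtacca

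TATAAA began 32 bases before the transcript start of Ccl8 and 31 bases before that of Ccl12, and it was not among the letters of the other 3 promoters. Of all 32851 promoters in the table, 13.6% hold it on either strand.

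Together the 10 genes gave 72935 UMIs in the WT cells and 93333 UMIs in the 6PGDKO cells, which was 0.271 and 0.328 of every 100 UMIs. Of the named cell types, macrophages most often carried several of them. UMIs of at least 3 of the 10 genes were in 60.7% of WT and 66.0% of 6PGDKO macrophages. In T cells, at a lower median depth (4864 and 5316 against 11994 and 13211 UMIs), the shares were 7.34% and 10.8%. The mature migratory DCs of cluster 12 were close to macrophages at 62.1% and 64.7%, and cluster 17 was at 50% and 68.9%. Macrophages were also the type with most UMIs of Ccl2, Ccl3, Ccl4, Ccl7, Ccl8 and Ccl12. T cells held most UMIs of Ccl5, monocytes those of Ccl17 and Ccl24, and DCs those of Ccl22.

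**Figure D1:**
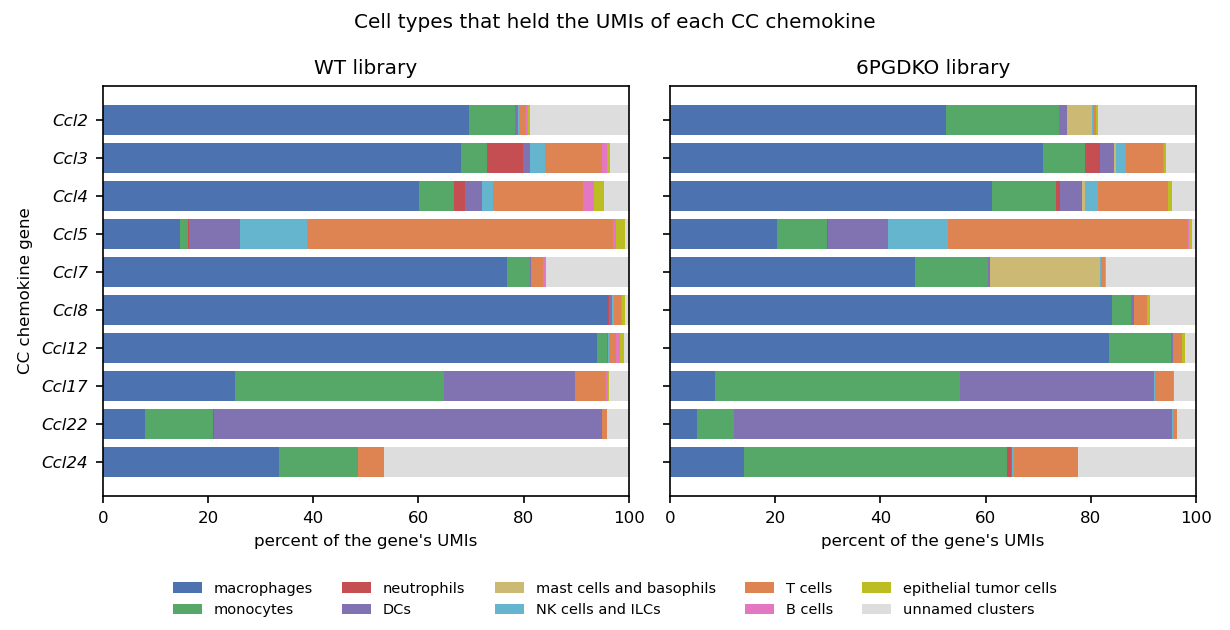
Percent of the UMIs (x axis) of each CC chemokine (y axis) that lay in cells of each type, for the WT library (left) and the 6PGDKO library (right), with unnamed clusters in light grey. Macrophages held 91.0% of Ccl8 and 88.4% of Ccl12 over both libraries, and DCs held 80.5% of Ccl22.

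The type with most UMIs was not always the type with the highest level per UMI, since the types differ in cell number and in UMIs per cell. By the mean of the CPM in both libraries, the leading types were macrophages for Ccl2, Ccl7, Ccl8 and Ccl12, neutrophils for Ccl3 and Ccl4, NK cells and innate lymphoid cells (ILCs) for Ccl5, DCs for Ccl17 and Ccl22, and monocytes for Ccl24. Types with under 50 cells and unnamed clusters were not ranked, and 2 of these had levels above the leading type for some members. Below, the level of a gene is compared between types and libraries and not with the level of another gene.

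**Figure D2:**
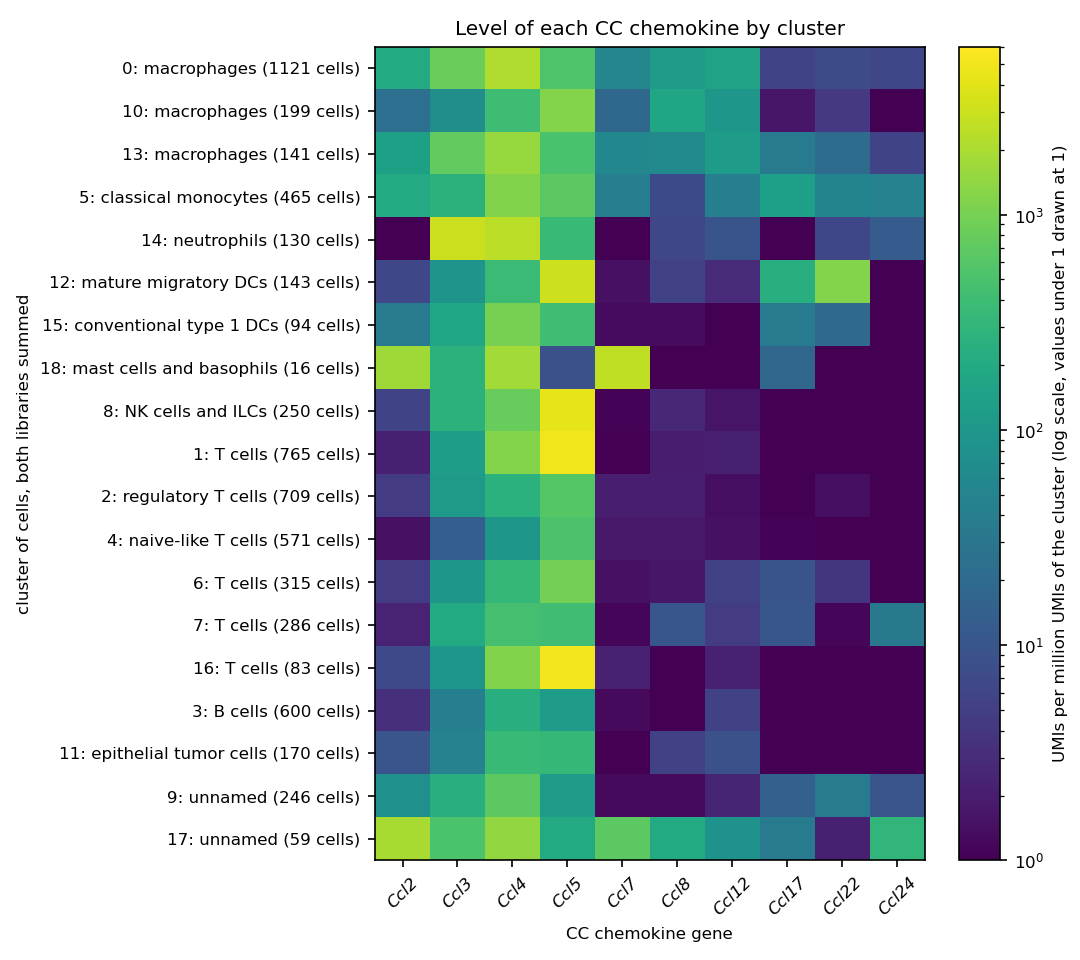
Level of each CC chemokine (columns) in each cluster of cells (rows, with the number of cells of both libraries), in CPM of the cluster on a log color scale. Ccl22 is brightest in mature migratory DCs (1200 CPM over both libraries), Ccl3 and Ccl4 in neutrophils (2974 and 2449 CPM), and Ccl2 in cluster 17 (1896 CPM).

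Ccl2, the main attractant of Ccr2-bearing monocytes, was at 153 CPM in WT (145 to 161) and 211 CPM in 6PGDKO macrophages (202 to 220), and at 132 and 224 CPM in monocytes. Macrophages led in WT and monocytes in 6PGDKO, so the order of these neighbours was not the same in both libraries. At a finer clustering resolution of 1.6, a monocyte cluster led by Chil3 had 22 WT and 44 6PGDKO cells. It was above macrophages in both libraries, at 604 and 435 CPM of Ccl2. Ccl2 was found in 25.4% of WT and 31.6% of 6PGDKO macrophages (median depths 11994 and 13211 UMIs). It was also in 0.885% of 565 WT B cells (median depth 3379 UMIs), a type that is not known to make it. When each macrophage was thinned to 2000 UMIs the shares were 10.6% and 15.02%, and for the other macrophage genes 3.24% and 6.30% (Ccl7), 15.1% and 9.16% (Ccl8) and 15.6% and 15.2% (Ccl12). No UMI of Ccl2 was found in 58 WT and 72 6PGDKO neutrophils, where a count of 0 allows a level of up to 20.6 and 17.4 CPM. In cluster 17 the level was 1779 and 1928 CPM, with Ccl2 in 85.7% of the 14 WT cells and 75.6% of the 45 6PGDKO cells. The 16 mast cells, all of the 6PGDKO library, were at 1757 CPM with Ccl2 in 93.8% of them. In the unnamed cluster 9, Ccl2 was lower in 6PGDKO, at 152 and 31.5 CPM (log2 ratio -2.27, -2.71 to -1.85). There 1 WT cell held 84 of 196 UMIs and 1 6PGDKO cell held 33 of 62.

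Ccl7, which shares Ccr2 with Ccl2, was at 40.9 CPM in WT (36.8 to 45.2) and 64.8 CPM in 6PGDKO macrophages (60 to 69.9), and in 7.92% and 16.7% of these cells. In WT B cells 3 UMIs were found, in 0.531% of the cells. Monocytes held 15.6 and 50.3 CPM. The mast cells of the 6PGDKO library were at 2645 CPM (2354 to 2961), so that 16 cells held 301 UMIs, or 21% of the Ccl7 UMIs of that library. Cluster 17 was at 734 and 663 CPM, with Ccl7 in 50% and 46.7% of its cells.

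Ccl12, a mouse ligand of Ccr2, was at 156 CPM in WT (148 to 165) and 135 CPM in 6PGDKO macrophages (128 to 143), and in 38.3% and 35.8% of them, against 0.531% of WT B cells. Ccl8 was at 145 CPM in WT (138 to 153) and 82.5 CPM in 6PGDKO macrophages (77.0 to 88.2), and in 30.7% and 24.6% of them, against 0.354% of WT B cells. These 2 genes were the most restricted to macrophages. The next type lay at a mean of 35.3 CPM for Ccl12 (monocytes) and 6.33 CPM for Ccl8 (neutrophils, from 1 UMI in each library). Among the macrophage clusters Ccl8 was at 155 and 80.5 CPM in cluster 0, at 153 and 186 CPM in cluster 10 and at 78.0 and 55.02 CPM in the cycling cluster 13. Cluster 17 was at 70.3 and 239 CPM.

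Ccl3, a ligand of Ccr1, was at 3831 CPM in WT (3519 to 4162) and 2250 CPM in 6PGDKO neutrophils (2032 to 2486), from 558 and 388 UMIs. Neutrophils were shallow, with a median of 2244 and 2113 UMIs per cell, and Ccl3 was nonetheless found in 69.0% and 65.3% of them, against 9.20% of WT B cells at a median of 3379 UMIs. Macrophages followed at 604 and 897 CPM. Because macrophages were many and deep, they held 69.8% of all Ccl3 UMIs.

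Ccl4, an attractant of macrophages and T cells, was at 3474 CPM in WT (3178 to 3790) and 1583 CPM in 6PGDKO neutrophils (1401 to 1783), and at 1719 and 2141 CPM in macrophages. Neutrophils led in WT and macrophages in 6PGDKO. Ccl4 was in 37.9% and 44.4% of neutrophils and in 70.2% and 75.5% of macrophages. With a cell filter of at least 1000 genes and at most 10% mitochondrial UMIs macrophages led for both Ccl3 and Ccl4. The 5 WT neutrophils with most Ccl4 had 521 to 818 genes each and were left out by that filter. The order under it is therefore not one of the same neutrophils. Ccl4 was also in 15.6% of WT B cells and 34.3% of WT epithelial tumor cells, with up to 82 and 138 UMIs in 1 cell. The source of these UMIs was not tested, and a low share of cells with Ccl4 is not by itself read as expression here.

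Ccl5, a product of cytotoxic lymphocytes, was at 4449 CPM in WT (4314 to 4587) and 4118 CPM in 6PGDKO NK cells and ILCs (3986 to 4253), and in 78.6% and 76.7% of them, against 9.56% of WT B cells. T cells as a whole were at 1943 and 2104 CPM. The T cell clusters were far apart: cluster 1, led by Cd8b1 and Cd8a, was at 5116 and 4721 CPM, and cluster 16, led by interferon-induced genes such as Ifit3, was at 4381 and 5844 CPM, both in the range of NK cells. Regulatory T cells were at 682 and 523 CPM. Among DCs, the mature migratory cells of cluster 12 were at 3827 and 2573 CPM with Ccl5 in 91.4% and 81.2% of cells, and conventional type 1 DCs at 320 and 481 CPM.

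Ccl22, a ligand of Ccr4, was at 509 CPM in WT (472 to 549) and 792 CPM in 6PGDKO DCs (755 to 830). Mature migratory DCs held nearly all of it, with 689 of the 689 WT and 1740 of the 1771 6PGDKO UMIs of DCs, at 900 and 1383 CPM and in 91.4% and 90.6% of the cells. Of 565 WT B cells 1 held a UMI. Monocytes were next at 89.9 and 37.1 CPM.

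Ccl17, the other ligand of Ccr4, was at 65.8 CPM in WT (52.8 to 80.9) and 200.3 CPM in 6PGDKO DCs (182 to 220), and at 105 CPM (88.2 to 124) and 143 CPM (132 to 156) in monocytes. Monocytes were above DCs in WT and below them in 6PGDKO, so neither led in both. Mature migratory DCs were at 114 and 312 CPM, with Ccl17 in 39.7% and 48.2% of the cells, against 1 of 565 WT B cells.

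Ccl24 was at 17.8 CPM in WT (11.4 to 26.5) and 56.9 CPM in 6PGDKO monocytes (49.7 to 64.8), and in 5.39% and 9.25% of them, and no UMI was found in WT B cells. Cluster 17 was higher, at 512 and 253 CPM with Ccl24 in 50% and 31.1% of its cells. Its 14 WT cells held 31.7% of the Ccl24 UMIs of the WT library.

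In their leading types, the UMIs of most members lay in few cells. This was measured as the share of the UMIs of a gene in its leading type that the 5 cells with most of them held. The median over the 10 members was 46.2% in WT and 34.1% in 6PGDKO. As a yardstick, the median over genes with at least 100 UMIs was 6.88% and 6.87% in macrophages, 35.2% and 26.4% in neutrophils, 19.5% and 17.3% in DCs, 18.6% and 17.0% in NK cells and ILCs, and 17.2% and 11.3% in monocytes. In WT, Ccl24 in monocytes (24 UMIs) and Ccl17 in DCs (89 UMIs) lay under that limit, so the yardstick does not cover them.

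**Figure D3:**
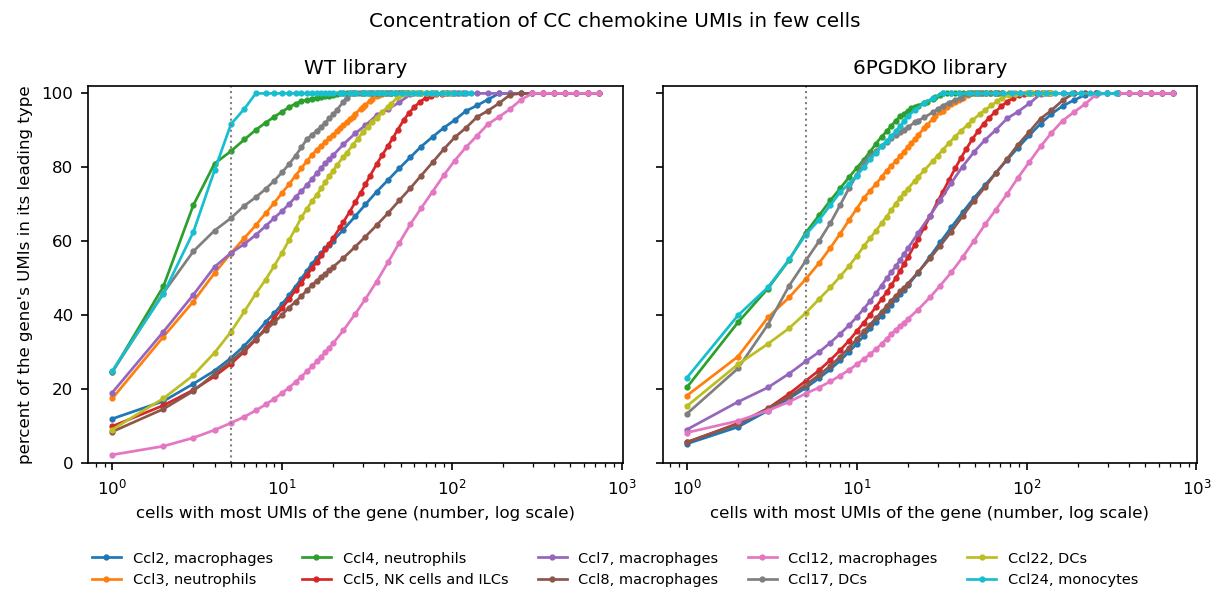
Percent of the UMIs of each CC chemokine in its leading type (y axis) held by the cells with most of them (x axis, number of cells, log scale), per library. At 5 cells (dotted line) the WT curves run from 10.9% for Ccl12 in macrophages to 91.7% for Ccl24 in monocytes, from 24 UMIs.

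Ccl4 in neutrophils was carried by very few cells. In WT, 5 of 58 neutrophils held 84.4% of the 506 UMIs (80.9% to 87.4%), and in 6PGDKO 5 of 72 held 62.3% of 273 UMIs. The 5 WT cells held 125, 117, 111, 57 and 17 UMIs of Ccl4 together with 93, 30, 98, 53 and 11 UMIs of Ccl3. They were not deeper than other neutrophils, with 1501 to 2422 UMIs each. Ccl3 was less uneven in the same type, with 56.8% of UMIs in 5 cells in WT and 49.7% in 6PGDKO. In macrophages the 5 top cells held 9.72% and 7.91% of Ccl3 and 8.13% and 7.89% of Ccl4, beside the 6.88% and 6.87% of the median gene.

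Among the genes led by macrophages, Ccl7 was the most uneven in WT, with 56.9% of 371 UMIs in 5 of 732 cells, against 27.5% of 668 UMIs in 6PGDKO. For Ccl2 the shares were 28.5% and 20.4%, for Ccl8 27.6% and 21.2%, and for Ccl12 10.9% and 18.9%. Of the Ccl12 UMIs of 6PGDKO macrophages, 116 of 1395 lay in 1 cell. The 5 cells with most Ccl8 held 1.14% and 0.3997% of all UMIs of the macrophages.

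Ccl17 in WT monocytes was nearly the transcript of 1 cell: 123 of 141 UMIs lay in a cell of 14561 UMIs that also held 40 of the 121 Ccl22 UMIs of WT monocytes. In 6PGDKO monocytes the top cell held 93 of 567 UMIs. In DCs the top 5 cells held 66.3% of 89 and 54.7% of 448 UMIs of Ccl17, and 35.6% of 689 and 40.6% of 1771 UMIs of Ccl22. The 2 cells with most Ccl22 in 6PGDKO DCs held 274 and 200 UMIs of it with 53 and 60 UMIs of Ccl17. For Ccl24, 5 of 130 WT monocytes held 22 of the 24 UMIs, and in 6PGDKO 5 of 335 held 61.8% of 225.

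Ccl5 in NK cells and ILCs was more even than most, with 26.9% and 22.3% in 5 cells. In T cells, which held most UMIs of Ccl5, the 5 top cells held 7.17% and 9.05%, beside 5.77% and 7.22% for the median gene. The Ccl5 of neutrophils was of another kind: 47 of 53 WT UMIs and 54 of 59 6PGDKO UMIs lay in 1 cell each. These 2 cells had 8251 and 9161 UMIs, several times the median neutrophil, and 22 and 16 UMIs of T or B cell genes (Cd3d, Cd3e, Cd3g, Trac, Cd79a and Ms4a1).

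Several members were found in the same cells. In macrophages Ccl4 was found in 86.9% of the 434 WT cells with Ccl3 and in 46.0% of those without it, and in 87.9% and 47.1% in 6PGDKO. The cells with Ccl3 were somewhat deeper, with medians of 12577 against 10330 UMIs in WT. Over single macrophages the Pearson r of the log-normalised values was 0.75 in WT (732 cells) and 0.71 in 6PGDKO (729 cells), and in NK cells and ILCs it was 0.75 (117 cells) and 0.74 (133 cells). Cells of a library share its preparation, and these correlations are descriptions.

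Ccl17 and Ccl22 went together in DCs, where Ccl22 was in 88.0% of WT cells with Ccl17 and 41.9% of cells without, and in 95.7% and 45.7% in 6PGDKO. The same pairing was seen in monocytes, with 50% against 3.39% in WT (12 cells with Ccl17) and 45.1% against 3.52% in 6PGDKO (51 cells). There the 51 cells with Ccl17 were much deeper, with a median of 18202 UMIs against 8328. Within mature migratory DCs alone Ccl22 was in most cells either way, 95.7% against 88.6% in WT and 100% against 81.8% in 6PGDKO.

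Of the 4 neighbours on chromosome 11, Ccl2 and Ccl7 were found together in macrophages, with Ccl7 in 17.7% of WT cells with Ccl2 and 4.58% of cells without, and 30% and 10.6% in 6PGDKO. The WT macrophage with most Ccl2 held 167 UMIs of Ccl2 and 61 of Ccl7. Ccl12 was in 58.6% of WT macrophages with Ccl7 and 36.5% without, and in 61.5% and 30.6% in 6PGDKO. Ccl8 and Ccl12, though both were highest in macrophages, showed little of this. Ccl12 was in 42.7% of WT macrophages with Ccl8 and 36.3% without, and in 40.8% and 34.2% in 6PGDKO, with r of 0.04 in both. The WT macrophage with most Ccl8 held 113 UMIs of Ccl8 and 13 of Ccl12, and 1 of the 2 with most Ccl12 (33 UMIs each) held no other member. Across the 18 clusters with at least 50 cells, by contrast, the r between Ccl8 and Ccl12 was 0.92.

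**Figure D4:**
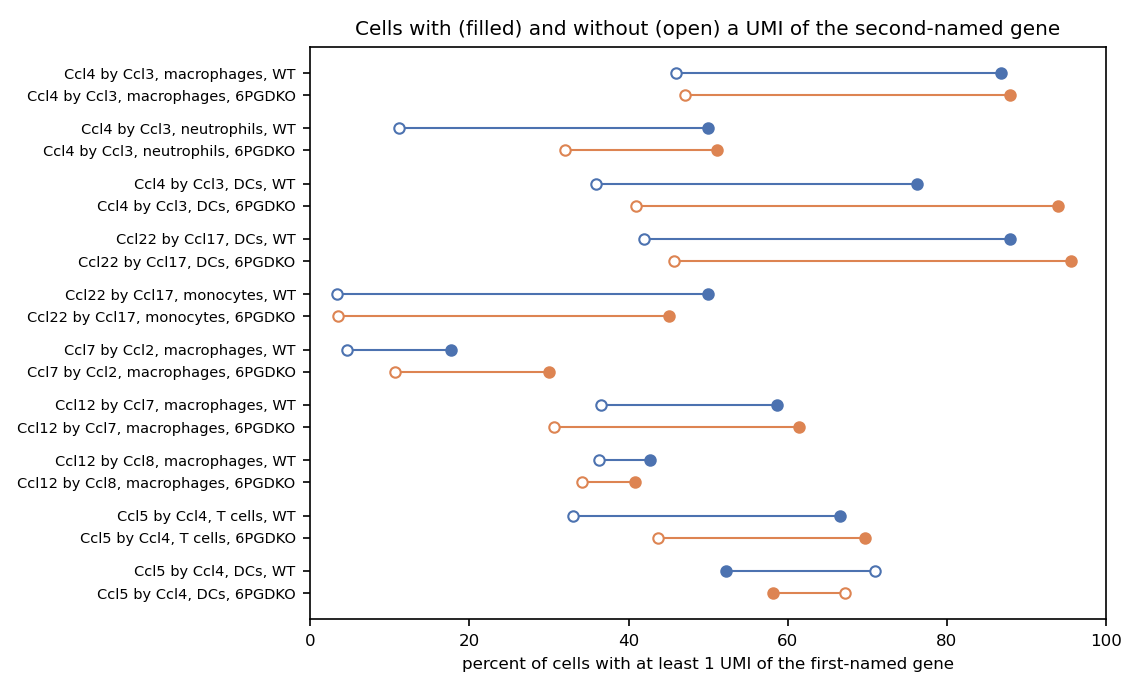
Percent of cells with at least 1 UMI of the first-named gene (x axis), among cells with (filled) and without (open) a UMI of the second-named gene, for pairs of CC chemokines by type and library (blue WT, orange 6PGDKO). Ccl4 by Ccl3 in macrophages spans 46.0% to 86.9% in WT, and Ccl12 by Ccl8 spans 36.3% to 42.7%.

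Ccl4 and Ccl5 lay together in T cells (Ccl5 in 66.5% of WT cells with Ccl4 and 33.1% without, and 69.7% and 43.7% in 6PGDKO). In DCs the order was the other way, with 52.3% against 70.9% in WT and 58.1% against 67.2% in 6PGDKO. Ccl4 was higher in conventional type 1 DCs (881 and 1100 CPM) than in mature migratory DCs (459 and 333 CPM), and Ccl5 the reverse.

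Genotype ratios were computed for genes with at least 10 UMIs in a type over both libraries, and at least a 2-fold ratio was the fixed rule of size. In macrophages the 10 members all had enough UMIs, and none was 2-fold higher or lower, where 3.67% of 12850 genes were 2-fold higher and 2.23% were 2-fold lower in 6PGDKO. Their median log2 ratio was 0.31, beside 0.06 over all these genes. Ccl2 was at 153 and 211 CPM (log2 ratio 0.47, 0.37 to 0.57), Ccl3 at 604 and 897 CPM (0.57, 0.52 to 0.62), Ccl4 at 1719 and 2141 CPM (0.32, 0.29 to 0.35) and Ccl7 at 40.9 and 64.8 CPM (0.67, 0.48 to 0.85). Without the 5 cells with most Ccl7 in each library, the Ccl7 ratio became 1.41. Ccl8 stood on the other side with a log2 ratio of -0.82 (-0.94 to -0.69), but of -0.16 when each cell was given equal weight. Ccl12 had a ratio of -0.21 (-0.32 to -0.10).

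T and B cell genes moved with some of these values. UMIs of Cd3d, Cd3e, Cd3g, Trac, Cd79a or Ms4a1 were found in 34.2% of WT and 46.1% of 6PGDKO macrophages, at 404 and 591 CPM. Macrophages with such UMIs held 913 and 832 CPM of Ccl5, and those without held 245 and 369 CPM. The log2 ratio of Ccl5 in macrophages was 0.30 (0.24 to 0.35) over all and 0.59 (0.48 to 0.70) in the cells without such UMIs. For Ccl22 it was 0.37 (-0.07 to 0.81) over all and -0.90 (-1.67 to -0.17) in the cells without them, and Ccl8 kept a negative ratio there (-0.52, -0.69 to -0.36).

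The macrophage clusters differed for some members. Ccl7 was 2-fold higher in 6PGDKO in cluster 0 (33.8 and 75.6 CPM, log2 ratio 1.16, 0.95 to 1.38) and in cluster 10 (3 and 19 UMIs, 2.50, 0.73 to 4.90), and 2-fold lower in the cycling cluster 13 (103 and 28.4 CPM, -1.86, -2.37 to -1.37). In cluster 13 the WT value was that of 2 cells, with 71 and 37 of the 119 UMIs, and the 5 top cells held 118 of 119 WT and 36 of 50 6PGDKO UMIs, so the direction there rests on these cells. Ccl12 was also lower in cluster 13 (194 and 78.9 CPM, -1.3, -1.62 to -0.99) and close to even in cluster 0 (-0.07, -0.19 to 0.04).

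Monocytes had the most members past 2-fold. Of the 10 members, 5 were at least 2-fold higher in 6PGDKO, where 7.19% of 10684 genes were, and 1 was at least 2-fold lower, where 2.85% were. The members' median log2 ratio was 0.91, beside 0.06 over all these genes. Ccl7 was at 15.6 and 50.3 CPM (1.69, 1.04 to 2.41), Ccl24 at 17.8 and 56.9 CPM (1.67, 1.06 to 2.35), Ccl12 at 20.8 and 49.8 CPM (1.26, 0.68 to 1.89) and Ccl5 at 366 and 764 CPM (1.06, 0.92 to 1.20). Ccl8 had 2 and 36 UMIs (2.61, 0.66 to 5.71), and 0.25 when cells were thinned to 2000 UMIs. Ccl2 stayed under 2-fold at 132 and 224 CPM (0.76, 0.53 to 1.00), and Ccl3 (-0.16) and Ccl4 (-0.21) were close to even.

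Several of these monocyte values rest on few WT cells. All 21 WT UMIs of Ccl7 lay in 2 cells, with 14 and 7, and 22 of the 24 UMIs of Ccl24 lay in 5. Under the other settings 4 of the 5 fell under 2-fold at least once, with Ccl8 as given above, Ccl5 at 0.72 and Ccl24 at 0.99 with cells thinned to 2000 UMIs, and Ccl12 at 0.71 when the Ccl genes were used for clustering. Without the 5 top cells of each library the log2 ratio was 1.87 for Ccl2, 1.95 for Ccl12, 3.86 for Ccl24 and, for Ccl17, 3.88 in place of 0.45 (0.18 to 0.73). Ccl22 was the member that was lower in 6PGDKO monocytes, at 89.9 and 37.1 CPM (-1.28, -1.63 to -0.92), and this became 0.87 without the 5 top cells. In WT those cells held 40, 28, 18, 15 and 9 of the 121 UMIs. UMIs of C1qa, C1qb, C1qc or Lyz2 were in 92.3% of WT and 64.8% of 6PGDKO monocytes, at 6756 and 3174 CPM. Lyz2 is the locus that drives Cre, which only the 6PGDKO mice carry, and it is active in myeloid cells, not in macrophages alone. These genes are therefore not a like measure of macrophage transcripts in both libraries. The same genes were at 16318 and 11274 CPM in macrophages, and their part in the monocyte ratios was not tested. UMIs of T or B cell genes were in 32.3% of WT and 40.3% of 6PGDKO monocytes, and in the cells without them Ccl5 had a ratio of 0.90 (0.69 to 1.11) and Ccl24 of 2.30 (1.48 to 3.24).

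**Figure D5:**
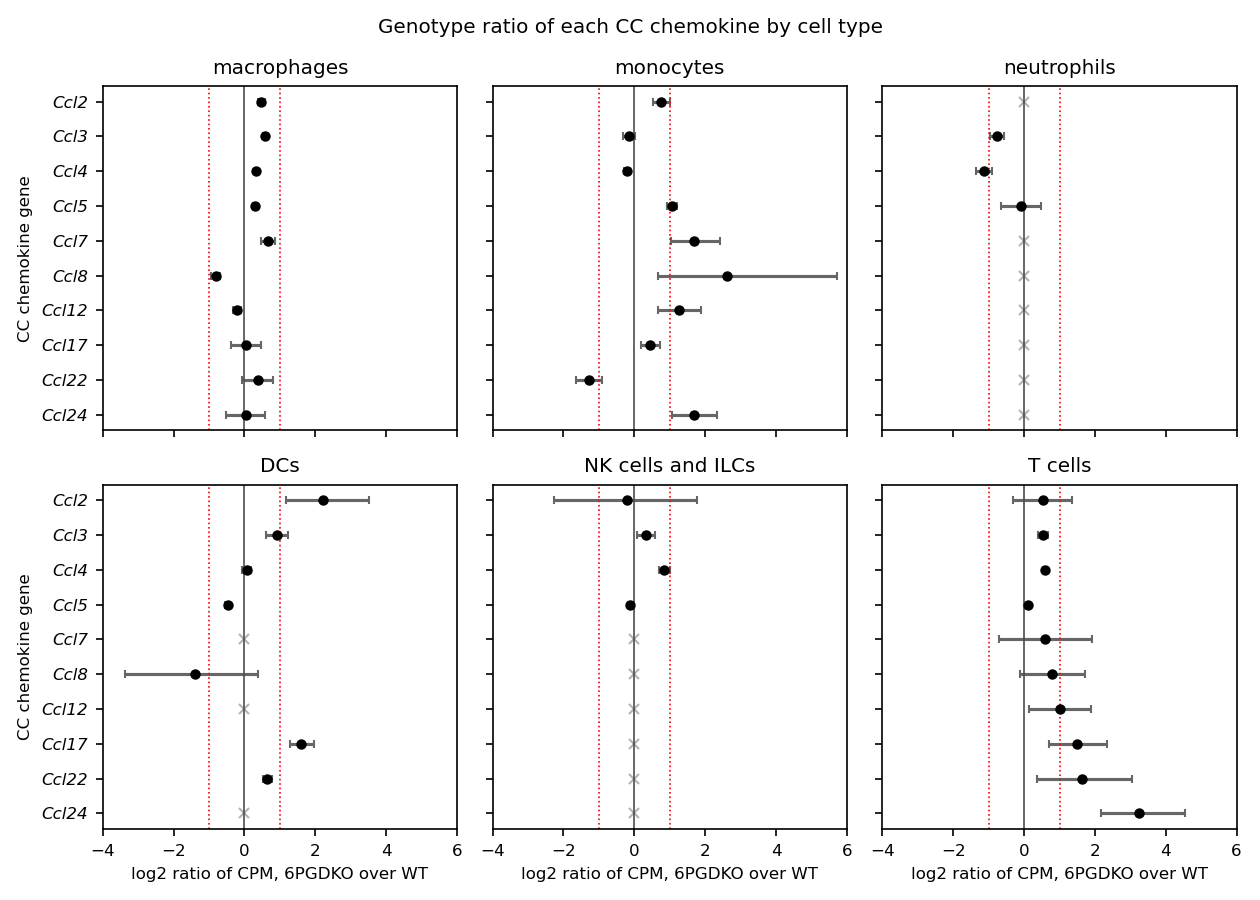
Log2 ratio of CPM, 6PGDKO over WT (x axis), of each CC chemokine in 6 cell types, with 95% intervals for counting error. Red dotted lines mark 2-fold, and a grey cross marks a gene with under 10 UMIs in the type. In macrophages the 10 points lie between the red lines, and in monocytes 5 lie to the right of them.

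In neutrophils 3 members had enough UMIs. Ccl4 was at least 2-fold lower in 6PGDKO (3474 and 1583 CPM, -1.13, -1.35 to -0.92), where 13.4% of 3339 genes were lower and 7.97% were higher by 2-fold, so that a gene 2-fold lower was common in this small and shallow type. Without the 5 cells with most Ccl4 in each library the log2 ratio was 0.15. Ccl3 was at 3831 and 2250 CPM (-0.77, -0.96 to -0.58), and at -0.54 without its 5 top cells. Ccl5, from the 2 cells described above, was at -0.09 (-0.65 to 0.47).

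In DCs 7 members had enough UMIs, of which 2 were at least 2-fold higher in 6PGDKO, where 7.72% of 10123 genes were, and 1 was at least 2-fold lower, where 2.19% were. Ccl17 was at 65.8 and 200.3 CPM (1.61, 1.28 to 1.95), and at 1.46 (1.12 to 1.81) in mature migratory DCs alone. In the DCs without UMIs of T or B cell genes it was 0.90 (0.50 to 1.3), while these UMIs were in 32.3% of WT and 47.1% of 6PGDKO DCs. Ccl22 was under 2-fold at 509 and 792 CPM (0.64, 0.51 to 0.77). Ccl2 had 8 and 62 UMIs (2.23, 1.16 to 3.50), of which 3 and 54 were in conventional type 1 DCs, and the 54 lay in 4 cells with 20, 16, 12 and 6. The lower member was Ccl8 with 8 and 5 UMIs, whose interval (-3.36 to 0.39) covers 0. Ccl5 was at 2303 and 1658 CPM (-0.47, -0.54 to -0.41).

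Conventional type 1 DCs, though few (41 and 53 cells), stood apart from the mature cells for the Ccr4 ligands too. Ccl22 had 0 and 31 UMIs there, in 0% and 17.0% of cells, and Ccl17 had 2 and 56 UMIs. A count of 0 among 588051 UMIs allows up to 5.10 CPM of Ccl22 in WT, and the level in 6PGDKO was 31.7 CPM (21.5 to 44.96).

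In NK cells and ILCs 4 members had enough UMIs and none was 2-fold apart, where 4.99% of 8554 genes were higher and 4.69% lower. Ccl4 was at 572 and 1026 CPM (0.84, 0.69 to 1.00), which became 1.18 with the mean over cells and 1.08 with cells thinned to 2000 UMIs, both past 2-fold, and Ccl5 at 4449 and 4118 CPM (-0.11, -0.18 to -0.05).

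In T cells the 10 members had enough UMIs, and 4 were at least 2-fold higher in 6PGDKO, where 3.69% of 12654 genes were, and none was 2-fold lower, where 2.93% were. Of these 4, 3 were at levels of a few CPM. Ccl12 was at 2.08 and 4.16 CPM (1.00, 0.13 to 1.90), with 17 of its 29 6PGDKO UMIs in 1 cell. Ccl17 was at 2.18 and 6.17 CPM (1.499, 0.71 to 2.33), with 34 of 43 in 1 cell that also held 8 UMIs of Ccl22. Ccl22 was at 0.832 and 2.58 CPM (1.64, 0.36 to 3.05), in 0.478% and 0.759% of T cells. The Ccl12 and Ccl17 ratios turned negative (-0.63 and -0.94) without the 5 top cells.

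Ccl24 in T cells had 8 and 55 UMIs (3.25, 2.17 to 4.53), of which 6 and 53 were in T cell cluster 7, at 6.50 and 65.1 CPM (3.33, 2.11 to 4.83). At the finer clustering resolution of 1.6, 5 and 53 of them were in a T cell cluster of 78 WT and 67 6PGDKO cells led by Hlf and Tcrg-C1, at 12.5 and 128 CPM. The 5 6PGDKO cells with most of it held 14, 10, 10, 5 and 5 UMIs, had no UMI of any other member, and 4 of the 5 had no UMI of C1qa, C1qb, C1qc or Lyz2. Their UMIs of T or B cell genes were few as well, with 4, 4, 5, 18 and 10 among 11003, 8461, 12217, 13282 and 7998 UMIs. Cluster 7 as a whole was at 3221 CPM of those genes in 6PGDKO, so the T cell name is less sure for these 5 cells. When the Ccl genes were used for clustering, the log2 ratio of Ccl24 in T cells was 0.57. In cluster 7, 1.26% of WT and 7.87% of 6PGDKO cells held Ccl24. Ccl4 and Ccl5, the members that T cells make in quantity, had ratios of 0.58 (0.52 to 0.64) and 0.12 (0.08 to 0.15). For Ccl4, 1 6PGDKO T cell held 879 of the 4809 UMIs, and the ratio was 0.23 without the 5 top cells of each library.

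By their levels over the 18 clusters with at least 50 cells, on a log2(CPM + 10) scale, the members fell in with different genes out of 12681. The closest by Pearson r were Mrc1 (0.99), Siglec1 and Abca9 for Ccl7, Pid1 (0.97), Parvb and Clec4a1 for Ccl2, Npl (0.98), Igf1 and Selenop for Ccl8, and Abcc3 (0.97), Fcgr1 and C1qc for Ccl12. They were Litaf (0.89), Tmem189 and Ptpre for Ccl3, Ccl3 itself (0.87), Cln3 and Efhd2 for Ccl4, and Nkg7 (0.83), Il12rb2 and Gm14029 for Ccl5. For the Ccr4 ligands they were Fut4 (0.96), Tmem39a and Bcl2l14 for Ccl22 and Pot1b (0.89), Tmem131 and Etv3 for Ccl17, and for Ccl24 Thbd (0.93), Krt80 and Ear2. These values share libraries and depth, and carry no test.

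Of 11 other CC chemokines, 8 were on 1 row of the matrices each and were counted. Ccl6 and Ccl9 were highest in cluster 17 (3125 and 3019 CPM, and 1839 and 1857 CPM), the cluster that was high for Ccl2, Ccl7 and Ccl24. Ccl1, a ligand of Ccr8, was highest in T cell cluster 7 (850 and 959 CPM). Ccl20, the ligand of Ccr6, was in the same cluster at 485 and 46.7 CPM (-3.38, -3.90 to -2.90). In macrophages 1 of the 5 with enough UMIs was 2-fold lower in 6PGDKO (Ccl20), where 2.23% of genes were, in monocytes 1 of 4 (Ccl1), where 2.85% were, in neutrophils 1 of 2 (Ccl9), where 13.4% were, and in NK cells and ILCs 2 of 3 (Ccl1 and Ccl6), where 4.69% were. In T cells 1 of 5 was 2-fold higher (Ccl1), where 3.69% of genes were. In DCs 2 of 5 were higher (Ccl1 and Ccl6), where 7.72% were, and 1 was lower (Ccl20), where 2.19% were.

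Receptors of the members were looked up in the same clusters. Ccr2 was at 1135 and 744 CPM in cluster 17, the cluster with the highest Ccl2, and at 588 and 639 CPM in regulatory T cells. Ccr1 was highest in neutrophils (831 and 1027 CPM), which were also the highest for Ccl3. Ccr4, the receptor of Ccl17 and Ccl22, was highest in T cell cluster 7 (26.0 and 38.1 CPM), and Ccr8 in regulatory T cells (59.96 and 64.4 CPM). Of the receptors tested, 3 of 10 were 2-fold higher in 6PGDKO macrophages (Ccr4, Ccr9 and Ccr10), where 3.67% of genes were, and 1 of 9 in monocytes (Ccr4), where 7.19% were, with 1 of 9 lower (Ccr9), where 2.85% were. In T cells 1 of 11 was higher (Ccr3), where 3.69% of genes were, and 1 lower (Ccr9), where 2.93% were.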

How the data were processed

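The deposited matrices hold raw UMI counts per gene and barcode, which the authors made with Cell Ranger 6.1.2 (the submitters' processing notes also name mm10 and Seurat), with 12 multiplexing oligos, which were left out of all totals. Counting settings such as strand are not given in the sources used here. Cells entered the computations if they had 500 to 7500 genes and no more than 15% of their UMIs from mitochondrial genes. They were clustered with Seurat 5.3.0 (SeuratObject 5.2.0, Matrix 1.6.5, R 4.3.3) from 2000 variable genes without any Ccl gene, 30 principal components, 20 neighbours and resolution 0.8. Clusters were named from marker lists by a rule that was set after the clusters were seen. The CC chemokines, the marker lists and the other gene lists were chosen with earlier results of these data known. No doublet caller was run, and cells with UMIs of another lineage were left out as an alternative instead.

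UMIs were summed per library and type, with exact Poisson intervals for levels, exact Clopper-Pearson intervals for shares and exact conditional intervals for ratios, all at 95% and for counting error only. Ratios needed at least 10 UMIs over both libraries and 20 cells in each. A count of 0 was given an upper limit of 3 counts. The computations used Python 3.11.15, numpy 2.4.6, pandas 2.3.3 and scipy 1.17.1, with biopython 1.88 for sequences and matplotlib 3.10.9 for figures, and were tested on simulated data. edgeR 4.0.16 was used for TMM scaling alone. Alternatives were TMM scaling, resolution 1.6, clustering with the Ccl genes, a stricter cell filter, the mean over cells, cells thinned to 2000 UMIs, and leaving out cells of mixed lineage or the 5 cells with most UMIs of the gene.

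Values were named for all members in the leading type and in each type with a ratio of at least 2-fold whose interval left out 0, and other values were given to complete a comparison. Of the other CC chemokines and receptors those with the highest CPM were named, and for each member the 3 genes with the highest Pearson r of log2(CPM + 10) over clusters with at least 50 cells, among genes with at least 50 UMIs. Some items of these lists are not reported here.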

Additional observations from a re-analysis of the deposited data

Results flagged for a closer look

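The log2 ratio of 6PGDKO over WT went opposite ways past 2-fold in different cells for several members. Of these, Ccl22, Ccl7 and Ccl17 are described below. Ccl5 was at 1.06 in monocytes and at -1.895 in epithelial tumor cells, where 1 WT cell held 194 of 513 UMIs. Ccl2 was at 2.23 in DCs and at -2.27 in the unnamed cluster 9, where 1 WT cell held 84 of 196 UMIs. In each case the difference was not tested, since there is 1 library per genotype. Ccl22 was at 1.64 in T cells (8 and 18 UMIs) and at -1.28 in monocytes (121 and 147 UMIs). In T cells 1 6PGDKO cell held 8 of the 18 UMIs and the ratio was -0.32 with cells thinned to 2000 UMIs, and in monocytes it was 0.87 without the 5 top cells, so both directions turned. Ccl7 was at 1.16 in macrophage cluster 0 and 2.50 in cluster 10, and at -1.86 in the cycling macrophage cluster 13, where 2 WT cells held 71 and 37 of 119 UMIs. Ccl17 was at 1.41 in macrophage cluster 13 (20 and 81 UMIs) and at -1.73 in macrophage cluster 0 (68 and 22 UMIs). In cluster 0, 1 WT cell held 50 of the 68 UMIs, and in cluster 13, 1 WT cell held 13 of 20 and 3 6PGDKO cells held 33, 24 and 21 of 81, so these directions rest on a few cells.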

How the results depend on the processing

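No paired analysis was possible because there is 1 library per genotype. Of the 44 genotype ratios, 40 moved by less than their counting interval with TMM scaling, 44 with resolution 1.6, 35 when the Ccl genes were used for clustering and 31 with the mean over cells, but 20 without cells of mixed lineage, 19 with cells thinned to 2000 UMIs and 15 without the 5 top cells, where fewer of the 44 had enough UMIs. Of the ratios past 2-fold, those that turned sign without the 5 top cells were Ccl4 in neutrophils (0.15), Ccl22 in monocytes (0.87), and Ccl12 (-0.63) and Ccl17 (-0.94) in T cells, and under 2-fold Ccl3 (0.20) and Ccl4 (0.14) in monocytes turned too. In T cells, Ccl12, Ccl17 and Ccl22 were at -0.49, -0.90 and -0.32 with thinning, and Ccl12 and Ccl17 at -1.94 and -1.81 without cells of mixed lineage. The number of members 2-fold higher in T cells went from 4 to 2 (without cells of mixed lineage), 1 (thinned) and 0 (without the 5 top cells), and the number 2-fold lower from 0 to 3 without cells of mixed lineage. In macrophages 1 member was 2-fold higher with the Ccl genes in the clustering, without cells of mixed lineage and without the 5 top cells, and 1 was 2-fold lower with thinning. In monocytes the number higher went from 5 to 3 with thinning (Ccl7 and Ccl12 of the 5, and Ccl17), and the 1 lower became 0 with thinning and without the 5 top cells. In DCs the 2 higher became 1 without cells of mixed lineage, and the 1 lower became 0 with the Ccl genes in the clustering, the mean over cells, thinning and without the 5 top cells. The median share of the 5 top cells was 51.2% in WT and 46.0% in 6PGDKO without cells of mixed lineage. Without those cells, monocytes led for Ccl2 and Ccl17. Fewer cells and UMIs enter under these alternatives, and other causes were not tested.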
